A study of Bos taurus with 30 samples.

Results

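The proteasome genes of the array were taken as all probes whose annotated gene symbol begins with PSM, a letter from A to G and a number. The rule found 42 probes for 41 genes, among 13824 probes of which those with a single symbol named 8073 genes. They comprised 13 probes for the core particle, 5 for interferon-inducible subunits, 5 for regulatory ATPases, 9 for other regulatory subunits, 2 for an alternative activator and an inhibitor, 7 for assembly chaperones and 1 for PSME3IP1. PSME3IP1 encodes a protein that interacts with the activator PSME3 and is no subunit of the proteasome. PSMG4 had 2 probes, and every other gene had 1. Of 48 genes of the family in the bovine RefSeq gene table, 8 had no probe by this annotation, namely PSMA2, PSMA8, PSMB11, PSMC6, PSMD4, PSMD10, PSMD12 and PSME3. All 42 probes had enough values to be tested.

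The proteasome is the protease that degrades ubiquitin-tagged proteins in the cytosol and nucleus. Its core is a barrel of alpha and beta rings with the active sites in 3 beta subunits, and a regulatory cap of ATPases and other subunits binds, unfolds and feeds the substrate. Interferon induces replacements for the catalytic beta subunits and the activator formed by PSME1 and PSME2, which together favour peptides that fit major histocompatibility complex class I. In ruminants the conceptus secretes interferon tau, to which the endometrium responds with a broad set of interferon-stimulated genes.

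The animals were cows in pregnancies by somatic cell nuclear transfer (SCNT, 5 animals), by in vitro fertilisation and embryo transfer (IVF-ET, 5 animals) or by artificial insemination (AI, 5 animals). Frozen endometrium of each animal was divided into caruncular tissue, from the specialised sites where the placenta attaches, and intercaruncular tissue from between them. Both RNAs of an animal were hybridised together on 2 arrays with the dyes exchanged. The labels give no age, breed, stage of pregnancy or nuclear donor line, and no treatment is common to the 3 groups in them. IVF-ET replicate 3 carries the same dye orientation on both of its arrays and was left out, which left 28 arrays of 14 animals.

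Each value is the log2 ratio of the 2 endometrial areas in an animal. The labels do not settle which area is on top, so values are given only as lying on the positive or the negative side. A ratio carries no level, so the presence of a gene or of a cell type cannot be read from it, and a lower share of a cell type in an area cannot be told apart from less RNA per cell. Across all tested probes the mean ratios of the AI group correlated at r = -0.293 with those of SCNT and at -0.271 with those of IVF-ET, whereas SCNT and IVF-ET correlated at 0.455. These are correlations across probes, which are not independent. Whether the AI values run the same way as the others is therefore unsettled. With the AI sign turned every AI value below would lie on the opposite side, and the differences from AI that are given for named subunits and for the family are given with the sign turned as well.

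SCNT replicate 5 stood apart. Its array SDs were 0.723 and 0.816, against 0.228 to 0.567 in the other animals. Among its proteasome probes 19 of 42 (45.2%) had a ratio under -0.5, against between 0 and 3 in every other animal. Among all probes that share was 18.1%, against 1.45% to 7.12% in the other animals, so its wider spread was not limited to the proteasome. The 2 arrays of SCNT replicate 5 correlated at r = 0.788 over the proteasome probes. In the other 13 animals this correlation between the arrays of an animal ran from -0.257 to 0.43, so the arrays of an animal shared little over these probes. The family and class medians in SCNT, and the SCNT results of subunits that were under -0.5 in this animal and are named below for their p, are also given without it.

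Between the endometrial areas, none of the proteasome probes passed the test in any kind of pregnancy. That does not show that the areas were alike, because likeness was not tested. In SCNT pregnancies 31 of 42 probes lay on the negative side with a median of -0.12, while all probes of the array had a median of 0.00032 and 49.8% on that side. In IVF-ET pregnancies 26 of 42 were negative with a median of -0.064, with 49.5% of all probes negative. In AI pregnancies 20 of 42 were negative with a median of 0.011, with 48.3% of all probes negative. Had the deposited values been dye ratios not yet turned to the areas, the medians would be -0.024 in SCNT, -0.015 in IVF-ET and -0.024 in AI. The group means ran from -0.58 (PSMB1) to 0.36 (PSMG1) in SCNT, from -0.29 (PSMA1) to 0.25 (PSMF1) in IVF-ET and from -0.20 (PSMA3) to 0.31 (PSMA6) in AI.

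The test was limma's moderated test on animal means with Benjamini-Hochberg adjustment over all 13818 tested probes, with 0.05 as the threshold. No proteasome probe was called in SCNT, where 1.85% of all probes were. None was called in the IVF-ET group, in AI pregnancies or over the 3 groups together, where the background was 0% each time. For SCNT minus AI the count was also 0 against a background of 0.970%, for IVF-ET minus AI 0 against 0.0579%, and for SCNT minus IVF-ET 0 against 0%. These backgrounds depended on the AI sign and on single animals, while the proteasome count stayed at 0. With the AI sign turned 0 of all probes were called for SCNT minus AI, against 134 as given, 0 for IVF-ET minus AI, against 8, and 438 over all animals, against 0. Without SCNT replicate 5 the counts were 242 for SCNT minus AI, 37 for IVF-ET minus AI, 78 over all animals and 21 in IVF-ET. At an unadjusted p under 0.05 5 proteasome probes were counted in SCNT (14.8% of all probes), 3 in IVF-ET (7.94%) and 2 in AI (4.41%), with 4 over all animals (9.53%). The same counts were 6 for SCNT minus AI (12.9%), 1 for IVF-ET minus AI (8.37%) and 4 for SCNT minus IVF-ET (4.41%). The SE of a proteasome probe's SCNT mean ran from 0.077 to 0.28. SEs given in the text come from limma fits with a spread shared by the 3 groups. An SE can therefore be smaller or larger than a group's own SD would give. PSMB10 had an SE of 0.22 in SCNT (SD 0.87, n = 5) and of 0.24 in IVF-ET (SD 0.13, n = 4). The bars in the plot of SCNT means with and without replicate 5 use the SD of the animals instead. With this number of arrays and this shared spread, ratios well beyond their SE could go uncalled. In SCNT the epithelial gene OCLN passed at 0.515 with an SE of 0.125 (adjusted p = 0.0478). CDH1, another epithelial gene, did not pass at 0.776 with an SE of 0.192 (adjusted p = 0.0511).

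**Figure D1:**
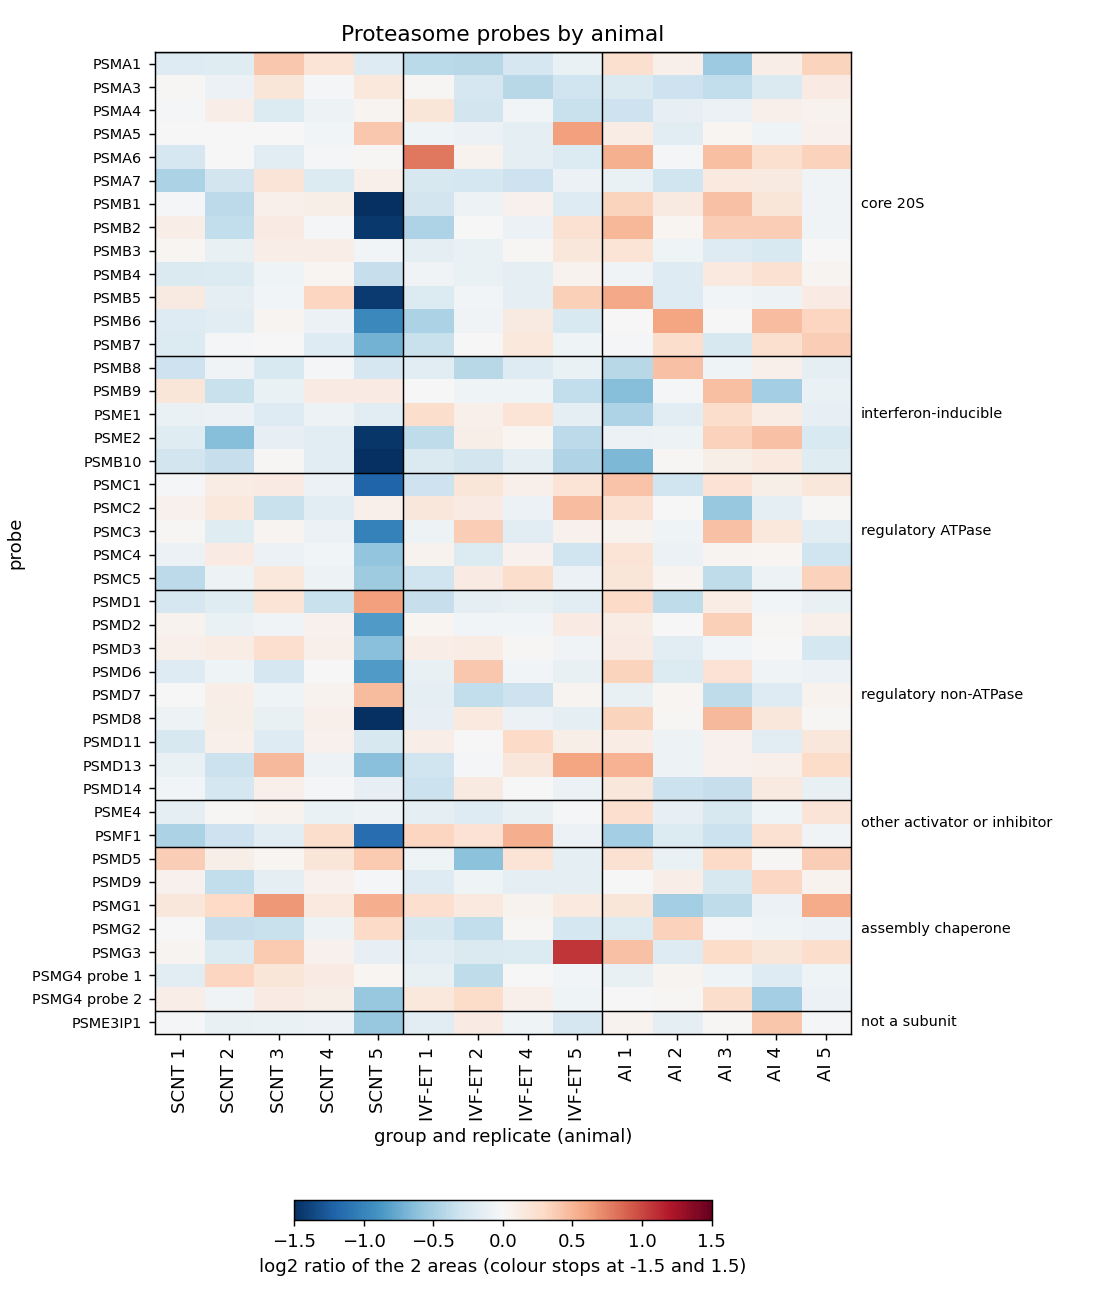
Log2 ratio of both endometrial areas for each of the 42 proteasome probes (rows, by class) in each of the 14 animals (columns, by group), with colour from blue (negative) to red (positive) and ends set at -1.5 and 1.5. The column of SCNT replicate 5 holds 19 probes under -0.5, most of them in the beta ring and the regulatory particle, and no row separates the groups. Of all probes, 18.1% were under -0.5 in that animal.

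No proteasome probe had groups that did not overlap. The count was 0 for SCNT and AI, 0 for IVF-ET and AI and 0 for SCNT and IVF-ET, where 2.84%, 3.32% and 2.27% of all probes had ranges that did not overlap. On the negative side in every SCNT animal lay 6 probes, PSMB7, PSMB8, PSMD6, PSME1, PSME2 and PSME3IP1, with 6.96% of all probes doing so. On the positive side in every SCNT animal lay PSMG1 and PSMD5, against 7.48% of all probes. In IVF-ET 8 probes were negative in every animal, against 11.0% of all probes, and PSMG1 alone was positive in every animal, against 10.9%. In AI no probe was negative in every animal, against 2.26%, and PSMD2 and PSMD8 were positive in every animal, against 2.67%. PSMB8 was the only probe negative in every SCNT and every IVF-ET animal, and PSMG1 the only one positive in all of them.

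The core particle had 13 probes, for 6 alpha and 7 beta subunits. The alpha subunits form the outer rings that gate the entry of substrates. In SCNT their group means ran from -0.14 (PSMA7) to 0.071 (PSMA5), and the PSMA7 mean was -0.19 without replicate 5. The ratios of PSMA3, PSMA4 and PSMA6 stayed between -0.25 and 0.18 in every SCNT animal. PSMA7 reached -0.48 in 1 SCNT animal, and PSMA1 and PSMA5 each reached 0.41 in another. In IVF-ET, 3 of them had the smallest p among the proteasome probes, PSMA3, PSMA1 and PSMA7, all on the negative side. Over the core particle, 9 of 13 probes were negative in the SCNT group, 11 in the IVF-ET group and 5 in the AI group, with medians of -0.14, -0.082 and 0.040. Without SCNT replicate 5 the SCNT median was -0.048, and with the AI sign turned the AI median was -0.040 with 8 of 13 negative.

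PSMA1 was at -0.20, -0.19, 0.41, 0.20 and -0.20 in SCNT animals, at -0.40, -0.42, -0.25 and -0.095 in IVF-ET animals, and at 0.24, 0.073, -0.55, 0.099 and 0.34 in AI animals. All 4 IVF-ET animals were negative, but the lowest AI animal lay below them. The IVF-ET mean was -0.29 ± 0.15 (SD, n = 4) with an adjusted p of 0.609, and IVF-ET minus AI was -0.33 ± 0.18 (SE, adjusted p = 0.66), or -0.25 with the AI sign turned.

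PSMA3 was at 0.019, -0.087, 0.18, -0.030 and 0.16 in SCNT animals, at 0.018, -0.25, -0.42 and -0.29 in IVF-ET animals, and at -0.22, -0.32, -0.38, -0.21 and 0.12 in AI animals. The lower values lay in IVF-ET and AI, with 1 animal of each reaching into the SCNT range. PSMA3 averaged 0.049 ± 0.12 in SCNT (SD, n = 5), -0.23 ± 0.18 in IVF-ET (SD, n = 4) and -0.20 ± 0.19 in AI (SD, n = 5). SCNT minus IVF-ET was 0.28 ± 0.13 (SE, adjusted p = 0.915).

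PSMA7 was at -0.48, -0.27, 0.19, -0.21 and 0.074 in SCNT animals, at -0.24, -0.27, -0.31 and -0.090 in IVF-ET animals, and at -0.10, -0.29, 0.14, 0.14 and -0.058 in AI animals. IVF-ET animals lay within the range of the SCNT animals. The IVF-ET mean of -0.23 ± 0.096 (SD, n = 4) had an adjusted p of 0.622.

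PSMA6 was at -0.25, -0.0069, -0.17, -0.017 and 0.020 in SCNT animals, at 0.79, 0.052, -0.14 and -0.21 in IVF-ET animals, and at 0.54, -0.024, 0.45, 0.23 and 0.35 in AI animals. Of the AI animals 4 lay above every SCNT animal, and AI replicate 2 lay among them. SCNT minus AI was -0.40 ± 0.17 (SE, adjusted p = 0.32) and 0.22 with the AI sign turned. IVF-ET spanned both ranges because of replicate 1, at 0.79. PSMA4 and PSMA5 had group means between -0.12 and 0.083. PSMA5 showed 1 high animal in SCNT and 1 in IVF-ET, 0.41 in SCNT replicate 5 and 0.61 in IVF-ET replicate 5, while its other SCNT and IVF-ET animals lay between -0.14 and -0.0016.

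The beta subunits form the inner rings, and PSMB5, PSMB6 and PSMB7 carry the chymotrypsin-like, caspase-like and trypsin-like activities. PSMB6 had the smallest p of all proteasome probes in SCNT minus AI and in IVF-ET minus AI. It was at -0.19, -0.16, 0.042, -0.084 and -0.97 in SCNT animals, at -0.47, -0.057, 0.13 and -0.23 in IVF-ET animals, and at 0.0032, 0.59, -0.0032, 0.46 and 0.32 in AI animals. The 3 highest values were AI animals, and the other 2 AI animals sat near 0 among the rest. PSMB6 averaged -0.27 ± 0.40 in SCNT (SD, n = 5), -0.16 ± 0.25 in IVF-ET (SD, n = 4) and 0.27 ± 0.27 in AI (SD, n = 5), and its SCNT mean was -0.098 without replicate 5. SCNT minus AI was -0.55 ± 0.19 (SE, adjusted p = 0.188), and -0.37 without SCNT replicate 5 (adjusted p = 0.258). IVF-ET minus AI was -0.43 ± 0.20 (SE, adjusted p = 0.587). With the AI sign turned these differences became 0.0025 for SCNT minus AI and 0.12 for IVF-ET minus AI.

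PSMB5 was at 0.14, -0.13, -0.047, 0.32 and -1.43 in SCNT animals, at -0.20, -0.045, -0.14 and 0.36 in IVF-ET animals, and at 0.57, -0.19, -0.036, -0.071 and 0.13 in AI animals. SCNT replicate 5 was the lowest, far below the rest, and AI replicate 1 was the highest. The SCNT mean was -0.23 ± 0.69 (SD, n = 5) with it and 0.070 ± 0.20 (SD, n = 4) without it. PSMB7 was at -0.21, -0.027, -0.0061, -0.20 and -0.70 in SCNT animals, at -0.33, 0.0023, 0.16 and -0.066 in IVF-ET animals, and at -0.031, 0.26, -0.24, 0.24 and 0.37 in AI animals. Every SCNT animal was negative, and 2 AI animals shared that side. SCNT minus AI for PSMB7 was -0.35 ± 0.15 (SE, adjusted p = 0.346). It was -0.23 without SCNT replicate 5 (adjusted p = 0.534) and -0.11 with the AI sign turned (adjusted p = 0.903).

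Among the beta subunits without an active site, PSMB1 and PSMB2 had SCNT means of -0.58 ± 1.19 and -0.32 ± 0.66 (SD, n = 5), and of -0.060 ± 0.22 and -0.045 ± 0.23 (SD, n = 4) without SCNT replicate 5. These genes are named for their values in that animal. PSMB3 and PSMB4 stayed between -0.35 and 0.22 in all 14 animals. The median of the beta ring was 0.20, 0.032, -0.0032, 0.22 and 0.041 in AI animals, and that of the alpha ring 0.0076, -0.14, -0.030, 0.087 and 0.093. The difference between the rings was not tested.

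The interferon-inducible subunits were PSMB8, PSMB9 and PSMB10, which take the places of PSMB5, PSMB6 and PSMB7, and the activator subunits PSME1 and PSME2. As a class they had a median of -0.17 in SCNT, -0.16 in IVF-ET and -0.075 in AI, with 4 of 5 negative in each group. With the AI sign turned the AI median was 0.075 with 1 of 5 negative, and without SCNT replicate 5 the SCNT median was -0.15 with 5 of 5 negative. Over all animals all 5 were negative, with means from -0.32 (PSMB10) to -0.032 (PSME1), but 3 of 5 with the AI sign turned, and none was called. PSME2 had the smallest p of any proteasome probe in SCNT, and PSMB10 the third smallest, and both rested in large part on SCNT replicate 5.

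PSME2 was at -0.18, -0.64, -0.13, -0.15 and -1.46 in SCNT animals, at -0.39, 0.094, 0.025 and -0.39 in IVF-ET animals, and at -0.091, -0.075, 0.34, 0.44 and -0.22 in AI animals. All 5 SCNT animals were negative, and 3 of them lay within the AI range. The SCNT mean was -0.51 ± 0.16 (SE, adjusted p = 0.129), or -0.28 without SCNT replicate 5 (adjusted p = 0.369). The SD of the SCNT animals themselves was 0.57 (n = 5). SCNT minus AI was -0.59 ± 0.23 (SE, adjusted p = 0.265), or -0.35 without that animal (adjusted p = 0.371) and -0.43 with the AI sign turned (adjusted p = 0.783). When all arrays were scaled to the same spread, the SCNT mean of PSME2 was -0.49 with an adjusted p of 0.0492.

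Its partner PSME1 was at -0.10, -0.088, -0.19, -0.073 and -0.17 in SCNT animals, at 0.26, 0.081, 0.20 and -0.14 in IVF-ET animals, and at -0.46, -0.16, 0.26, 0.11 and -0.13 in AI animals. The SCNT animals were the closest together of the groups, at -0.12 ± 0.050 (SD, n = 5), with IVF-ET at 0.10 ± 0.18 (SD, n = 4) and AI at -0.075 ± 0.28 (SD, n = 5). SCNT minus IVF-ET for PSME1 was -0.23 ± 0.14 (SE), which did not pass the threshold. In SCNT replicate 5, where PSME2 was at -1.46, PSME1 was at -0.17.

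PSMB10 was at -0.28, -0.35, 0.019, -0.15 and -2.11 in SCNT animals, at -0.22, -0.27, -0.13 and -0.45 in IVF-ET animals, and at -0.67, 0.022, 0.092, 0.15 and -0.18 in AI animals. Apart from SCNT replicate 5 the groups overlapped. The SCNT mean was -0.57 ± 0.22 (SE, adjusted p = 0.212), or -0.19 without that animal (adjusted p = 0.585). The SD of the SCNT animals themselves was 0.87 (n = 5). The IVF-ET mean was -0.27 ± 0.13 (SD, n = 4), with all 4 animals negative.

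PSMB8 was at -0.31, -0.056, -0.23, -0.024 and -0.25 in SCNT animals, at -0.17, -0.41, -0.19 and -0.098 in IVF-ET animals, and at -0.42, 0.44, -0.059, 0.079 and -0.15 in AI animals. All 9 SCNT and IVF-ET animals were negative, and the AI animals spread over both sides. The means were -0.17 ± 0.13 in SCNT (SD, n = 5, adjusted p = 0.447), -0.22 ± 0.14 in IVF-ET (SD, n = 4, adjusted p = 0.682) and -0.022 ± 0.31 in AI (SD, n = 5). PSMB9 was at 0.18, -0.33, -0.097, 0.12 and 0.13 in SCNT animals, at 0.011, -0.063, -0.069 and -0.37 in IVF-ET animals, and at -0.64, -0.031, 0.45, -0.51 and -0.10 in AI animals. PSMB9 had animals on both sides in every group and was not low in SCNT replicate 5.

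**Figure D2:**
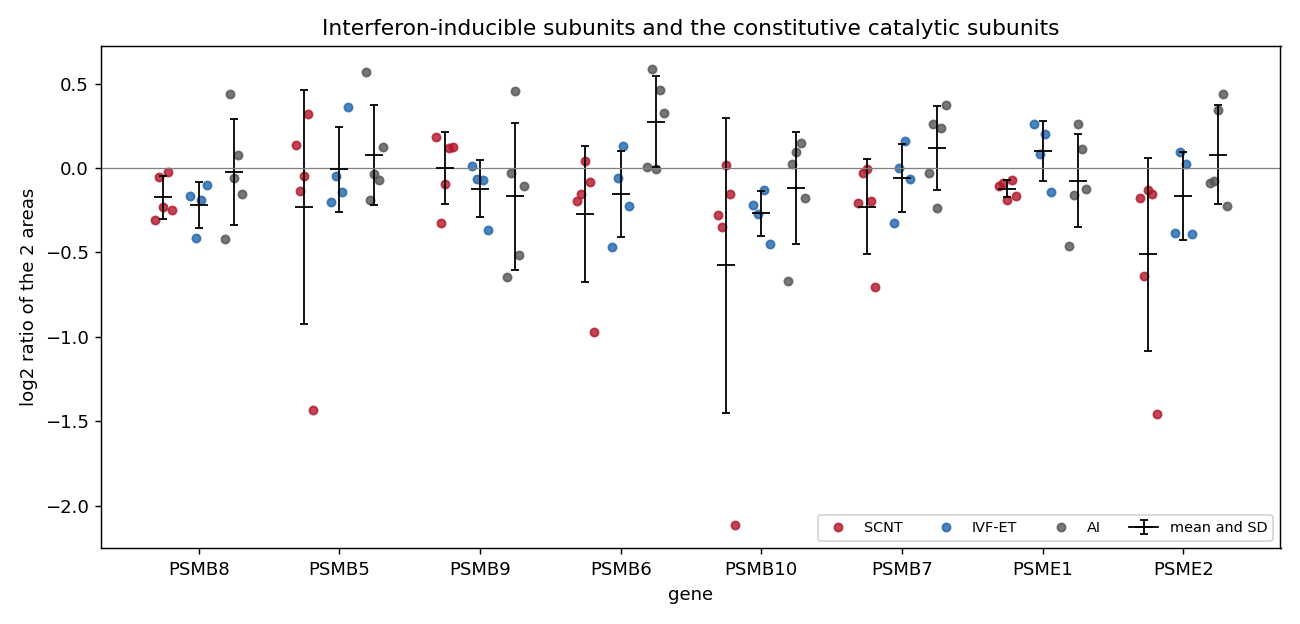
Log2 ratio of both areas for the 5 interferon-inducible subunits and the constitutive catalytic subunits PSMB5, PSMB6 and PSMB7 in each animal, with points coloured by group and bars for the mean and SD of a group. PSMB10, PSME2, PSMB5, PSMB6 and PSMB7 are lowest in SCNT replicate 5, from -2.11 to -0.70, while PSMB8, PSMB9 and PSME1 of that animal lie between -0.25 and 0.13.

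The spread of the inducible class over AI animals was wide. Its median was -0.46 in AI replicate 1 and 0.26 in AI replicate 3, and the other AI animals were at -0.031, 0.11 and -0.15. A list of 22 measured interferon-stimulated genes had a median of -1.05 in AI replicate 1, -0.041 in replicate 2, 0.23 in replicate 3, 0.50 in replicate 4 and -0.016 in replicate 5. In SCNT animals that list was at -0.067, -0.48, -0.34, -0.24 and -0.63, and the inducible subunits at -0.18, -0.33, -0.13, -0.073 and -0.25. In IVF-ET animals the list was at 0.11, 0.21, -0.16 and -0.26, and the inducible subunits at -0.17, -0.063, -0.069 and -0.37. Both were negative in all 5 SCNT animals. No gene of the list was called in any comparison.

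The ATPases of the regulatory base unfold the substrate. All 5, PSMC1 to PSMC5, had negative SCNT means, from -0.24 (PSMC3) to -0.039 (PSMC2), with a median of -0.18. The IVF-ET median was 0.039 and the AI median 0.021. The class median in SCNT animals was -0.012, 0.12, 0.039, -0.085 and -0.59, so replicate 5 alone was far below 0. Without it the SCNT median of the class was -0.053. PSMC1 averaged -0.21 ± 0.56 with it (SD, n = 5) and 0.034 ± 0.10 without it (SD, n = 4). PSMC2 was the ATPase that stayed out of this, at 0.081 in SCNT replicate 5.

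The regulatory subunits without ATPase activity were PSMD1 and PSMD2, which scaffold the base, and 7 subunits of the lid, among them PSMD14, the deubiquitinase that removes ubiquitin chains, and its partner PSMD7. The class had a median of -0.11 in SCNT, 0.019 in IVF-ET and 0.019 in AI, with 7, 4 and 4 of 9 negative. Without SCNT replicate 5 the SCNT median was -0.011, and with the AI sign turned the AI median was -0.019. PSMD8 was at -0.077, 0.088, -0.11, 0.077 and -1.53 in SCNT animals, at -0.12, 0.15, -0.084 and -0.14 in IVF-ET animals, and at 0.34, 0.012, 0.49, 0.17 and 0.023 in AI animals. It was above 0 in all 5 AI animals, with SCNT minus AI at -0.52 ± 0.24 (SE, adjusted p = 0.39). That difference was -0.21 without SCNT replicate 5 (adjusted p = 0.514) and -0.10 with the AI sign turned (adjusted p = 0.95). The SCNT mean of PSMD8 was -0.31 ± 0.17 with replicate 5 and -0.0055 ± 0.093 without it (SE). The SD of the SCNT animals themselves was 0.69 with replicate 5 and 0.10 without it. PSMD2 was also above 0 in all AI animals, from 0.0079 to 0.36, and at -0.85 in SCNT replicate 5.

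PSMD6 was negative in all 5 SCNT animals, from -0.85 to -0.011, with a mean of -0.27 ± 0.34 (SD, n = 5, adjusted p = 0.288), or -0.13 without replicate 5 (adjusted p = 0.752). PSMD14 stayed between -0.35 and 0.17 in all 14 animals, with group means from -0.095 to -0.070. PSMD1 and PSMD7 went the other way in SCNT replicate 5, at 0.62 and 0.48. In IVF-ET, PSMD1 was negative in all 4 animals, at -0.19 ± 0.10 (SD, n = 4). PSMD3, PSMD11 and PSMD13 had group means between -0.13 and 0.17.

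PSMF1, an inhibitor of the core particle, gave the smallest p among the proteasome probes for SCNT minus IVF-ET. It was at -0.47, -0.31, -0.16, 0.26 and -1.15 in SCNT animals, at 0.32, 0.21, 0.54 and -0.093 in IVF-ET animals, and at -0.51, -0.20, -0.33, 0.22 and -0.053 in AI animals. Of the 4 IVF-ET animals 3 were above 0, and 4 of the 5 SCNT animals were below it, with an overlap at SCNT replicate 4. SCNT minus IVF-ET was -0.61 ± 0.23 (SE, adjusted p = 0.915), or -0.41 without SCNT replicate 5. PSME4, an activator that caps the core in place of the regulatory particle, stayed between -0.24 and 0.25 in all animals.

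Of the chaperones that assemble the proteasome, 1 of 7 probes was under -0.5 in SCNT replicate 5, where 18.1% of all probes were. PSMG1, which pairs with PSMG2 to build the alpha ring, was at 0.17, 0.30, 0.65, 0.15 and 0.54 in SCNT animals, at 0.26, 0.15, 0.050 and 0.15 in IVF-ET animals, and at 0.18, -0.51, -0.38, -0.087 and 0.55 in AI animals. It was positive in all 9 SCNT and IVF-ET animals and on both sides in AI. The SCNT mean of PSMG1 was 0.36 ± 0.12 (SE, adjusted p = 0.164), or 0.32 without SCNT replicate 5 (adjusted p = 0.327). PSMG2 had means of -0.095 ± 0.26 in SCNT (SD, n = 5), -0.21 ± 0.16 in IVF-ET (SD, n = 4) and -0.0080 ± 0.21 in AI (SD, n = 5).

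PSMD5, a chaperone of the regulatory base, was at 0.37, 0.093, 0.032, 0.18 and 0.39 in SCNT animals, at -0.063, -0.61, 0.20 and -0.14 in IVF-ET animals, and at 0.22, -0.098, 0.28, 0.023 and 0.37 in AI animals. IVF-ET held the lowest value and SCNT was positive throughout. SCNT minus IVF-ET was 0.36 ± 0.16 (SE, adjusted p = 0.915) and IVF-ET minus AI -0.31 ± 0.16 (SE, adjusted p = 0.633), or 0.0085 with the AI sign turned. PSMD9, another base chaperone, was negative in all 4 IVF-ET animals, at -0.14 ± 0.050 (SD, n = 4).

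PSMG3 pairs with PSMG4. It reached 1.08 in IVF-ET replicate 5, the highest proteasome value in any animal, while the other 3 IVF-ET animals lay between -0.22 and -0.15. The 2 probes of PSMG4 disagreed in side in SCNT, with means of 0.099 and -0.061, and in IVF-ET, with means of -0.13 and 0.11. PSME3IP1 was negative in all SCNT animals, at -0.18 ± 0.22 (SD, n = 5), or -0.077 ± 0.043 (SD, n = 4) without replicate 5.

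The low ratios of SCNT replicate 5 were uneven over the complex. They covered 45.2% of its proteasome probes, against 18.1% of all probes under -0.5 in that animal. In the beta ring they ran from -2.68 (PSMB1) to -0.041 (PSMB3) with a median of -0.97, and PSMB1, PSMB2, PSMB5, PSMB6 and PSMB7 were under -0.5. In the alpha ring they ran from -0.20 (PSMA1) to 0.41 (PSMA5) with a median of 0.060. Under -0.5 were also 4 of 5 ATPases, 5 of 9 other regulatory subunits, 2 of 5 inducible subunits, PSMF1, 1 PSMG4 probe and PSME3IP1. These counts come from 1 animal and have no replicate.

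Both arrays of SCNT replicate 5 showed the low values. PSMB1 was at -2.09 with caruncle in Cy5 and -3.27 with caruncle in Cy3, and PSMB10 was at -2.28 and -1.95 on the same arrays. PSME2 was at -0.90 and -2.01, and PSMD8 at -1.66 and -1.40. PSMB8 differed between the arrays, at 0.25 and -0.74. Over all probes these 2 arrays correlated at r = 0.79, against -0.055 to 0.42 in the other animals.

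**Figure D3:**
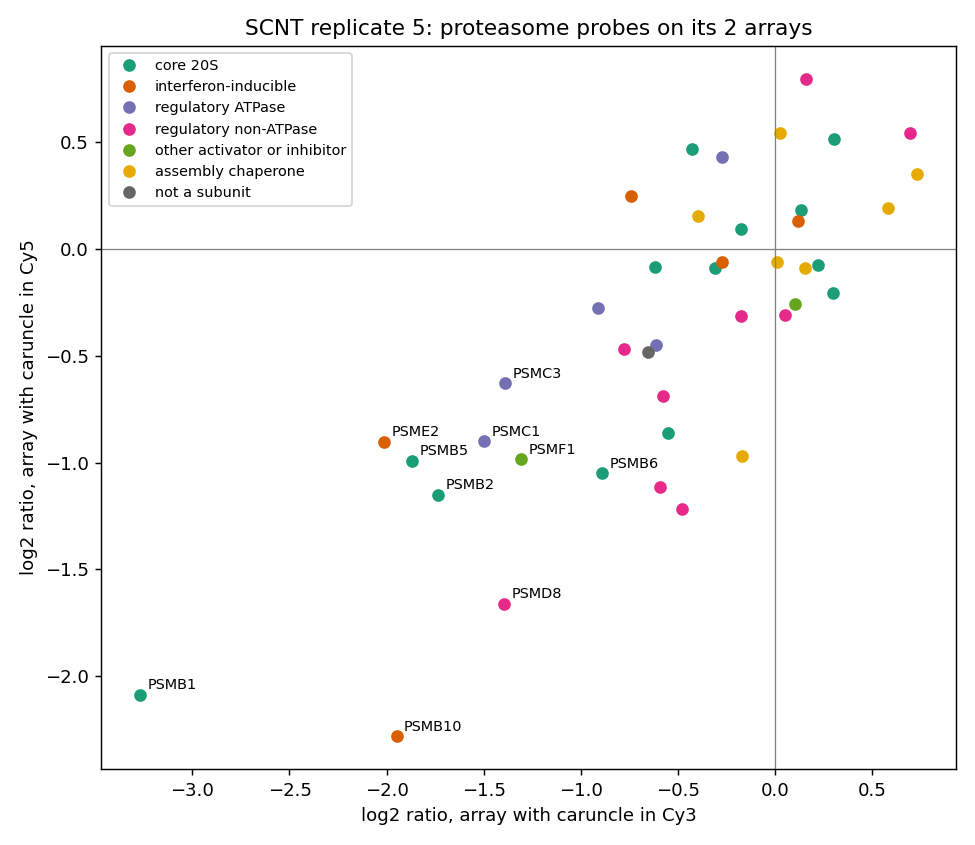
Log2 ratio of each proteasome probe on the array of SCNT replicate 5 with caruncle in Cy3 (x axis) and on the one with caruncle in Cy5 (y axis), coloured by class. PSMB1, PSMB10, PSME2 and PSMD8 lie at the low end on both arrays, and the r over the 42 probes is 0.788.

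The shift of the family in SCNT was smaller without this animal. The median over the 42 probes was -0.050 with 30 negative, against -0.12 with 31 negative when it was kept. SCNT minus AI had a median of -0.12 with 28 of 42 negative, and -0.089 with 28 negative without it, while all probes had -0.0075 and -0.0045. SCNT minus IVF-ET had a median of -0.097 with 27 negative, and 0.037 with 17 negative without it, a change of side. With the AI sign turned SCNT minus AI had a median of -0.11 with 33 negative. IVF-ET minus AI holds no SCNT mean, and the animal entered it only through the shared spread and the dye effect. The median of IVF-ET minus AI was -0.080 with 31 of 42 negative, and -0.081 with 31 negative without SCNT replicate 5. With the AI sign turned it was 0.015 with 20 negative, also a change of side. Over all animals 34 of 42 probes were negative with a median of -0.055. The count was 24 with a median of -0.022 without SCNT replicate 5, and 30 with a median of -0.070 with the AI sign turned. With SCNT replicate 5 kept and no sign turned, 49.8% of all probes were negative over all animals. The same share was 51.6% for SCNT minus AI, 51.8% for SCNT minus IVF-ET and 50.9% for IVF-ET minus AI.

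**Figure D4:**
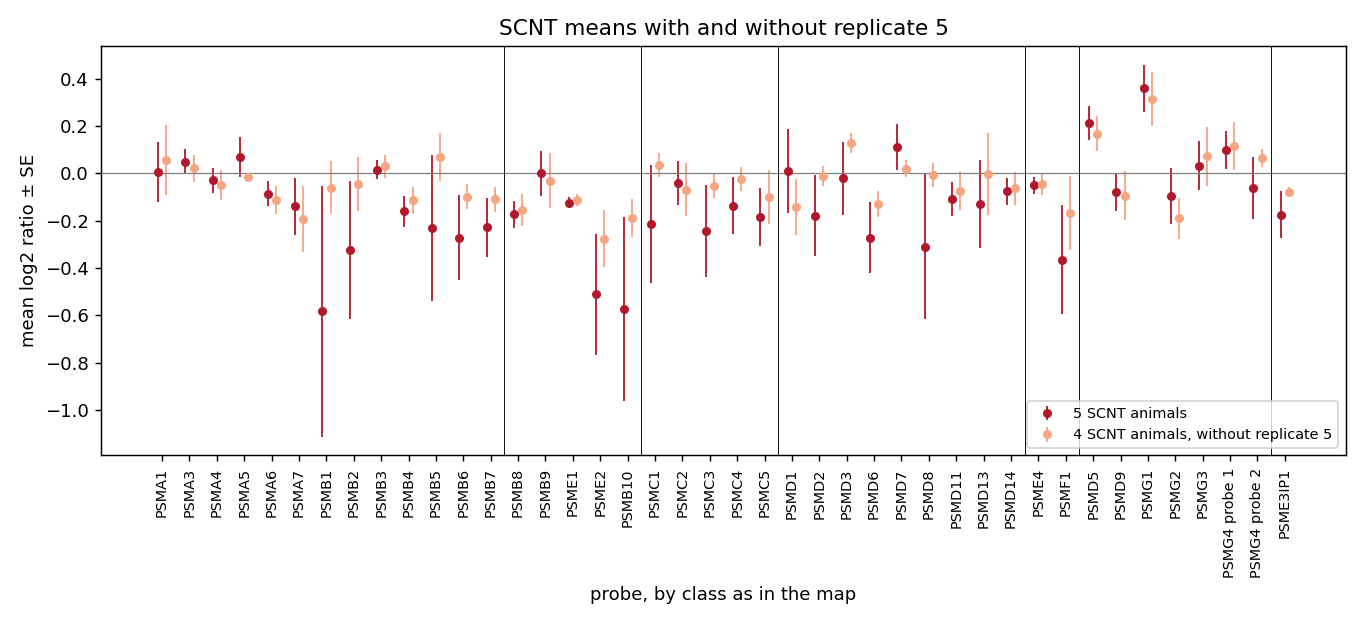
Mean log2 ratio of each proteasome probe over the SCNT animals with and without replicate 5, with bars of 1 SE computed from the SD of the animals shown. Without it PSMB1 moves to -0.060 and PSMB10 to -0.19, while PSMG1 stays positive at 0.32.

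Genes that work with the proteasome were read in the same way. Of 40 listed ubiquitin-system partners 20 had a probe, and their median over animals stayed between -0.069 and 0.18, with 0.052 in SCNT replicate 5. None was called in any comparison. The smallest p in SCNT was that of UBQLN4, a shuttle to the proteasome, at -0.29 ± 0.13 (SE, adjusted p = 0.302). UFD1, a cofactor of the segregase VCP, followed at -0.76 ± 0.35 (SE, adjusted p = 0.331). UFD1 had 2 probes, of which 1 was read, and the side of the other is not given here. Neither gene is given without SCNT replicate 5. POMP, the maturation factor of the core, was at 0.28 ± 0.19 (SE, adjusted p = 0.561).

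Antigen processing takes up the peptides the proteasome makes. Of 15 listed genes 10 had a probe, and negative means were found for 9 in the SCNT group, 5 in IVF-ET and 2 in AI, with medians of -0.14, -0.0042 and 0.097. The list median in SCNT animals was -0.080, -0.26, -0.020, -0.037 and -0.62, with replicate 5 lowest. The chaperone CALR, at -0.37 ± 0.13 (SE, adjusted p = 0.173), and the interferon-response factor IRF1, at -0.56 ± 0.22 (SE, adjusted p = 0.243), had the smallest p in SCNT. No gene of the list was called in any comparison.

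Markers of the cell types an endometrial sample can hold were read beside these values. The median of 23 of 29 leukocyte markers stayed between -0.10 and 0.20 in all animals and was 0.027 in SCNT replicate 5. The median of 10 of 12 stromal markers ran from -1.38 to -0.53 in SCNT, from -0.88 to -0.48 in IVF-ET and from -0.082 to 0.53 in AI. The median of 10 of 12 epithelial markers ran from 0.21 to 0.54 in SCNT, from 0.23 to 0.80 in IVF-ET and from -0.55 to 0.25 in AI. In SCNT replicate 5 the stromal and epithelial medians were -1.10 and 0.49, both within the range of the other SCNT animals. The median of 8 of 12 trophoblast markers ran from -1.02 to 0.11 in SCNT, from -0.19 to -0.023 in IVF-ET and from -0.15 to 0.063 in AI. Of these markers, 7 stromal ones on the negative side, 3 epithelial ones on the positive side and the immunoglobulin gene IGHG1, on the negative side, passed the test in SCNT. The part of these markers in the proteasome values was not tested.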

How the data were processed

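The deposited values are log ratios of both channels of each spotted 2-colour array, made by the authors and taken here as log2. The log base, the channel order and the normalisation are not given in the sources used here, and scanner intensities were not used here. Between 26744 and 27643 of 27648 spots of an array had a value. The values were read as already turned to the endometrial areas. Each array was centred on its median, 2 adjacent spots of a probe were averaged, the mean dye effect of a probe was subtracted, and each animal was represented by the mean of its 2 arrays. Group means were fitted with limma 3.58.1 in R 4.3.3 with a shared spread, in 7 comparisons, over 13818 probes with a value in at least 4 animals of SCNT and AI and 3 of IVF-ET. The procedure was run on simulated data in which the 2 arrays of an animal nearly agreed apart from the dye effect. The real arrays of most animals did not, so that run gives no measure of power here. No count of reads exists, and the number of arrays limits the precision. Gene symbols came from the platform annotation, and 42 of 42 gene IDs of members matched the RefSeq table. The members and lists were chosen with earlier results of these data known. Per-animal values are given for the inducible subunits, for PSMB5, PSMB6 and PSMB7 and for the 3 smallest p in each group and difference. PSMB1, PSMB2, PSMC1, PSMC2, PSMD1, PSMD2, PSMD6, PSMD7, PSMD8 and the other members given with animal values were chosen after their values were seen. Replicates are separate animals by their IDs in the labels, numbered in accession order. The labels name no batch. No gene positions or sequences are given here.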

Additional observations from a re-analysis of the deposited data

Results flagged for a closer look

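In 10 of 81 sets of animal values, 1 animal lay far from the rest of its group by Dixon's criterion, and in all 10 it was SCNT replicate 5. Chance alone flags about 1 in 20 such sets, but these sets were not picked blind. PSMB1, PSMB2, PSMC1, PSMC3 and PSMD8 were added after their values were seen, and others for their small p. The count of 10 therefore cannot be set against that rate. PSMB1 was at -2.68, with the other SCNT animals between -0.39 and 0.087, and PSMB10 at -2.11, with the others between -0.35 and 0.019. The catalytic subunits PSMB5, PSMB6 and PSMB7 were at -1.43, -0.97 and -0.704. The ATPases PSMC1 and PSMC3 were at -1.20 and -1.01, and the median of all 5 ATPases was -0.593, against -0.085 to 0.12 in the other SCNT animals. The lid subunit PSMD8 was at -1.53, and the median of the 9 other regulatory subunits was -0.623, against -0.077 to 0.057. These sets share the same animal and arrays, so they are not independent of each other.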

How the results depend on the processing

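The count of proteasome probes past the threshold stayed at 0 in all 7 comparisons whichever animal was left out (lowest 0, highest 0). It changed under 2 of the other alternatives. With the values read as dye ratios it was 1 in AI (PSMC5), where 360 of all probes were called, against 0. Over all animals it was then 6 (PSMA6, PSMB1, PSMC5, PSME1 and both PSMG4 probes), where 2132 of all probes were called, against 0. Under that reading an animal's value is set by the difference between its arrays of opposite dye orientation. The main reading takes the mean of that quantity off as the dye effect. For these 6 probes the dye effect ran from -0.32 (a PSMG4 probe) to 0.40 (PSMA6). With arrays scaled to the same spread the proteasome count was 1 in SCNT (PSME2), where 344 of all probes were called, against 256. Signs turned for members named by the smallest p under these readings. As dye ratios, PSMA1 was at 0.11 in IVF-ET and 0.013 for IVF-ET minus AI, PSMB10 at 0.086 in SCNT, PSMD5 at 0.30 for IVF-ET minus AI and -0.39 for SCNT minus IVF-ET, and PSMF1 at 0.38 for SCNT minus IVF-ET. With the AI sign turned, AI means were 0.20 for PSMA3, -0.31 for PSMA6 and -0.27 for PSMB6, SCNT minus AI was 0.22 for PSMA6 and 0.0025 for PSMB6, and IVF-ET minus AI was 0.12 for PSMB6 and 0.0085 for PSMD5. None of these turned values passed the threshold. The cause of these changes was not tested. Over all probes the SCNT count, 256, ran from 0 to 509 under the other alternatives, with 0 for values read as dye ratios and for IVF-ET replicate 3 kept with its second array turned, and 509 for arrays fitted with duplicateCorrelation. It ran from 42 without SCNT replicate 1 to 325 without AI replicate 1. With 1 animal left out the count over all probes ran from 5 without AI replicate 3 (7 without AI replicate 4) to 260 without AI replicate 1 for SCNT minus AI, from 0 to 37 for IVF-ET minus AI and from 0 to 78 over all animals, both highest without SCNT replicate 5. Each ratio pairs the 2 areas of an animal. No pairing of animals across groups was possible, because the labels carry no replicate numbers that link them. Signal over background is unknown here, so dim probes could not be told apart.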

Other observations

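IVF-ET replicate 3, whose arrays are labelled with 1 dye orientation, was in no comparison. Over the 42 proteasome probes its 2 arrays correlated at r = 0.00848, and over all probes at -0.317, and 19 of 42 proteasome probes lay on opposite sides of 0 on them. PSMB10 was at 0.45 on one array and -0.56 on the other, and PSMB8 at 0.36 and -0.50. The alpha subunit PSMA6 was positive on both, at 0.38 and 0.48, and the lid subunit PSMD14 negative on both, at -0.65 and -0.20. Unlike the animal values above, those of IVF-ET replicate 3 still hold the dye effect. For PSMA6 the mean dye effect in the other animals was 0.40 in the labelled orientation, about the size of both values. The PSMA6 values therefore cannot be read as a ratio of the areas.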
